A study of Mus musculus with 6 samples.

Results

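The transcripts of 10 lysosomal enzymes that process antigen were followed in splenic dendritic cells. They comprise 8 cathepsins (Ctsl, Ctsb, Ctss, Ctsd, Ctsz, Ctsc, Ctsh and Ctse), the asparaginyl endopeptidase legumain (Lgmn) and the lysosomal thiol reductase Ifi30. They were chosen by gene symbol, and all 10 were found among the 23420 genes of each count file. Total RNA was extracted and sequenced, and reads were counted per gene. The libraries fall into 2 groups, 3 labelled TBK1-DKO and 3 labelled WT, both from C57BL/6 mice. The mice were 8 weeks old in one label and 10 weeks old in another. The labels do not spell out DKO, the alleles, any Cre driver, how the dendritic cells were isolated or whether each library came from its own animal, so the p-values speak for the spread among the 6 libraries alone, part of which may be technical.

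Dendritic cells take up proteins into endosomes and lysosomes, where proteases cut them into peptides for MHC class II molecules. The same enzymes remove the invariant chain, Cd74, which blocks the peptide groove until a peptide editor loads it. The cathepsins differ in chemistry: Ctsl, Ctsb, Ctss, Ctsz, Ctsc and Ctsh are cysteine proteases, Ctsd and Ctse are aspartic proteases, legumain cuts after asparagine, and Ifi30 (also called GILT) reduces disulphide bonds so that folded antigens can be opened. Ctss is the enzyme known for the last steps of invariant chain removal in mouse dendritic cells and B cells, and Ctsl does this work in the cortical epithelium of the mouse thymus.

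Gene reads numbered 45018389 to 47349648 in the TBK1-DKO libraries and 31077585 to 36145508 in the WT libraries. Every member had at least 2795 reads in every library and passed the filter on low counts. Levels are reads per 1000000 gene reads after scaling (CPM). A log2 fold change is positive where the level was higher in TBK1-DKO. TBK1-DKO 2 stood apart from the other TBK1-DKO libraries (chi-square of 38.3 per degree of freedom against TBK1-DKO 1, where TBK1-DKO 1 and 3 gave 2.47). WT 1 stood apart from the other WT libraries (14.5 against WT 3, where WT 2 and 3 gave 2.62). Results are therefore given also without TBK1-DKO 2 and WT 1, a setting that narrows the spread by construction. The targeted gene did not separate the labels: Tbk1 averaged 82.3 ± 2.69 CPM in TBK1-DKO and 85.0 ± 5.08 CPM in WT (SD, n = 3 each). Reads over the whole gene do not show a deletion of part of it, so the labels were not checked by this value. The 9 dendritic cell markers were present in all libraries, and 3 of them were called: Kit (log2 fold change 0.37) and Zbtb46 (0.35) rose, and Itgax (-0.20) fell. The Zbtb46 call was lost without TBK1-DKO 1 or WT 3 and the Itgax call without TBK1-DKO 1, TBK1-DKO 3, WT 1 or WT 2 (adjusted p up to 0.052 and 0.095, edgeR, Benjamini-Hochberg). Flt3 had 147 to 153 CPM in TBK1-DKO and 146 to 150 CPM in WT, and Cd74 averaged 6374 ± 585 CPM in TBK1-DKO and 6618 ± 502 CPM in WT.

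Most of these transcripts were lower in the TBK1-DKO libraries and 1 was higher. Ctsl, Ifi30, Ctsc, Ctsb, Ctsd, Lgmn and Ctss fell, Ctse rose, and Ctsz and Ctsh were not called. The count of 7 falls among 10 members compares with 9.90% of the 14388 genes tested that were called lower, and the 1 rise with 13.7% called higher (edgeR, quasi-likelihood F test, p adjusted by Benjamini-Hochberg over all genes tested, threshold 0.05). In the same 8 members the groups did not overlap, 7 lower and 1 higher, where 19.5% of tested genes were lower and 21.5% higher without overlap. The median log2 fold change was -0.25 over the members and 0.00 over all tested genes. Summed over the 10 members, the level was 5572 to 6236 CPM in the TBK1-DKO libraries and 6475 to 7030 CPM in the WT libraries. A bulk library cannot tell fewer cells of a type from less RNA per cell.

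The number of falls depended on single libraries. It was 4 without TBK1-DKO 1 and 4 without TBK1-DKO 3, where 6.83% and 7.11% of all genes were called lower. It was 3 without WT 2 and 3 without WT 3, with 6.62% and 7.11% of all genes lower. It was 7 without TBK1-DKO 2 (14.4% of all genes), 6 without WT 1 (8.43%) and 9 without both TBK1-DKO 2 and WT 1 (23.5%). At a stricter threshold of 0.01, Ctsl, Ctsc, Ifi30 and Ctsb were called lower, with 5.05% of all genes. The rise of Ctse was called in each of these comparisons.

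**Figure D1:**
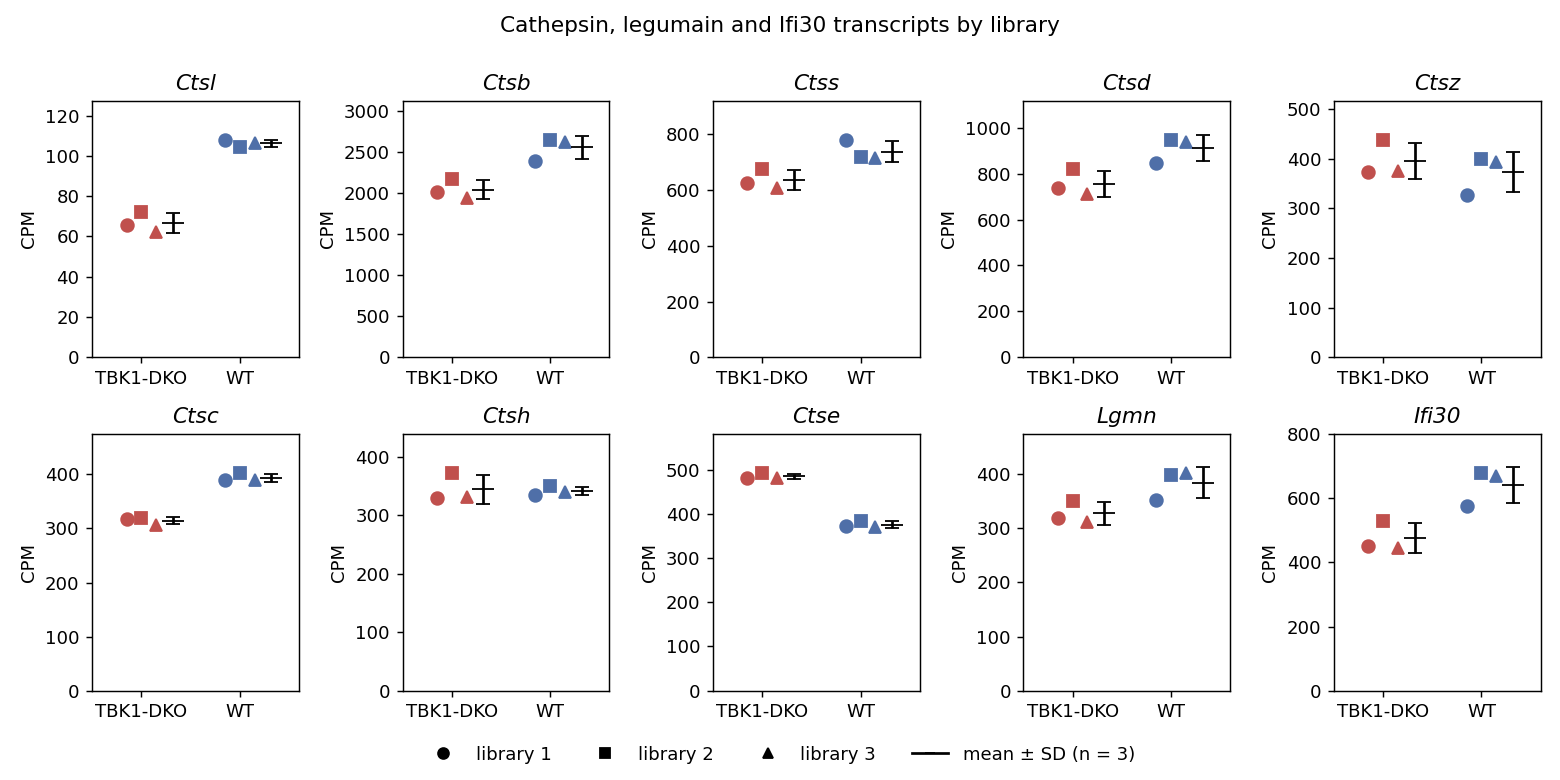
Level of each transcript in CPM (vertical axis, from 0) in the 3 TBK1-DKO libraries (red) and the 3 WT libraries (blue), with a symbol per library and the mean ± SD beside them. Ctsl lies between 62.1 and 72.2 CPM in TBK1-DKO and between 105 and 108 CPM in WT, Ctse is higher in every TBK1-DKO library, and the groups overlap for Ctsz and Ctsh.

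Ctsl changed the most. The gene (ENSMUSG00000021477.9) lies on chromosome 13, 64359337 to 64370890, minus strand, with 8 exons in transcript Ctsl-201, and 1742 of its exonic bases are shared with the antisense gene model Gm47123. It had 65.5, 72.2 and 62.1 CPM in TBK1-DKO 1, 2 and 3, against 108, 105 and 106 CPM in WT 1, 2 and 3. All TBK1-DKO libraries were below all WT libraries, and the gap between the groups was wider than the range of either. Ctsl fell by 37.4% in TBK1-DKO, or by 0.68 on the log2 scale (SE 0.06, 95% interval of the fold change -0.82 to -0.53; adjusted p = 5.4e-05, edgeR, Benjamini-Hochberg). The call stood when each library was left out in turn, with log2 fold changes of -0.76 to -0.63. It was the only member whose called change reached 1.5-fold, where 3.22% of tested genes were called lower by at least that much.

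Ctss, the main invariant chain protease of dendritic cells, fell by less. It lies on chromosome 3, 95526786 to 95556403, plus strand. Ctss had 624, 675 and 607 CPM in TBK1-DKO 1, 2 and 3, against 781, 719 and 716 CPM in WT 1, 2 and 3. The highest TBK1-DKO library was just under the lowest WT library. On the log2 scale Ctss fell by 0.22 (SE 0.07, 95% interval of the fold change -0.37 to -0.07; adjusted p = 0.042, edgeR, Benjamini-Hochberg). That call was lost without TBK1-DKO 1, TBK1-DKO 3, WT 1, WT 2 or WT 3 (adjusted p = 0.15, 0.15, 0.11, 0.090 and 0.075 by edgeR) and stood without TBK1-DKO 2.

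Ctsl and Ctss can be set against each other within a library, where scaling plays no part. For every 100 reads of Ctss there were 10.5, 10.7 and 10.2 reads of Ctsl in TBK1-DKO 1, 2 and 3, against 13.8, 14.5 and 14.9 in WT 1, 2 and 3. The groups did not overlap. The log2 ratio of Ctsl to Ctss averaged -3.25 ± 0.03 in TBK1-DKO and -2.79 ± 0.05 in WT (SD, n = 3 each), a difference of -0.46 (exact two-sided permutation test, p = 0.1, the smallest that 3 against 3 libraries allow).

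Among the other cysteine cathepsins, Ctsb and Ctsc fell and Ctsz and Ctsh were not called. Ctsb, an endopeptidase that also trims dipeptides from the carboxy terminus, had the most reads of the members. It lies on chromosome 14, 63122462 to 63145923, plus strand, and 774 of its exonic bases are shared with Fdft1 on the opposite strand. Ctsb had 2006, 2167 and 1941 CPM in TBK1-DKO 1, 2 and 3, against 2391, 2645 and 2621 CPM in WT 1, 2 and 3. The groups did not overlap, and the log2 fold change was -0.32 (SE 0.07; adjusted p = 0.0098, edgeR, Benjamini-Hochberg). The Ctsb call was lost without WT 2 or WT 3 (adjusted p = 0.064 and 0.052 by edgeR).

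Ctsc, a dipeptidyl peptidase that also activates the serine proteases of granules, lies on chromosome 7, 88278085 to 88310888, plus strand. Its level was 317, 319 and 306 CPM in TBK1-DKO 1, 2 and 3, against 389, 402 and 390 CPM in WT 1, 2 and 3. Libraries of a group were close to each other and the groups stood well apart. Ctsc fell by 20.2% (log2 fold change -0.33, SE 0.05; adjusted p = 0.0017, edgeR, Benjamini-Hochberg), and the call stood when each library was left out.

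Ctsz is a carboxypeptidase gene on chromosome 2, 174427493 to 174439039, minus strand. It had 374, 438 and 374 CPM in TBK1-DKO 1, 2 and 3, against 326, 398 and 394 CPM in WT 1, 2 and 3. TBK1-DKO 2 was the highest library and WT 1 the lowest, while the other 4 lay between 374 and 398 CPM. The log2 fold change of 0.08 (95% interval -0.12 to 0.29) was not called. It was -0.10 without TBK1-DKO 2 and WT 1 (adjusted p = 0.0020, edgeR, Benjamini-Hochberg). That setting narrows the spread by construction, and 47.7% of all genes were called in it, so the call carries little weight. Ctsh, an aminopeptidase gene on chromosome 9, 90054152 to 90076089, plus strand, was not called either. Its level was 330, 372 and 331 CPM in TBK1-DKO 1, 2 and 3, against 336, 350 and 339 CPM in WT 1, 2 and 3. The groups overlapped, and the log2 fold change was 0.01 (95% interval -0.13 to 0.16). Without TBK1-DKO 2 and WT 1, with the same limit, it was -0.07 (adjusted p = 0.020, edgeR, Benjamini-Hochberg).

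The aspartic cathepsins moved in opposite directions. Ctsd, the main aspartic endoprotease of lysosomes, lies on chromosome 7, 142375911 to 142388038, minus strand, and 808 of its exonic bases are shared with the gene model Gm49369 on the same strand. Ctsd had 737, 819 and 711 CPM in TBK1-DKO 1, 2 and 3, against 846, 948 and 937 CPM in WT 1, 2 and 3. TBK1-DKO 2 and WT 1 came close to each other without overlap. The log2 fold change was -0.27 (SE 0.08; adjusted p = 0.028, edgeR, Benjamini-Hochberg), a call lost without TBK1-DKO 1, TBK1-DKO 3, WT 2 or WT 3 (adjusted p = 0.099 to 0.12 by edgeR).

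Ctse, an aspartic protease of endosomes in immune cells, was the member that rose. It lies on chromosome 1, 131638306 to 131675505, plus strand, and no other annotated gene overlaps it. Ctse had 482, 492 and 481 CPM in TBK1-DKO 1, 2 and 3, against 372, 385 and 370 CPM in WT 1, 2 and 3. The range within each group was 0.03 (TBK1-DKO) and 0.06 (WT) on the log2 scale, far below the gap between the groups. Ctse was 29.3% higher in TBK1-DKO (0.37 on the log2 scale, SE 0.05, 95% interval 0.25 to 0.49; adjusted p = 8.0e-04, edgeR, Benjamini-Hochberg), and the call stood when each library was left out. In a comparison chosen after these values were seen, there were 65.5, 60.1 and 67.7 reads of Ctse per 100 reads of Ctsd in TBK1-DKO 1, 2 and 3, against 43.9, 40.6 and 39.5 in WT 1, 2 and 3.

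Legumain and Ifi30, which prepare antigens for the cathepsins, both fell. Lgmn (chromosome 12, 102394084 to 102439813, minus strand) had 319, 351 and 312 CPM in TBK1-DKO 1, 2 and 3, against 351, 399 and 402 CPM in WT 1, 2 and 3. The groups came within 1 CPM of each other, at 350.8 in TBK1-DKO 2 and 351.4 in WT 1. The log2 fold change of -0.23 (SE 0.07; adjusted p = 0.045, edgeR, Benjamini-Hochberg) became -0.36 without TBK1-DKO 2 and WT 1. The Lgmn call was lost without TBK1-DKO 1, TBK1-DKO 3, WT 2 or WT 3 (adjusted p = 0.15 to 0.16 by edgeR).

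Ifi30, which interferon gamma induces, lies on chromosome 8, 70762774 to 70766663, minus strand, and is annotated in GENCODE M21 as a processed transcript. It had 451, 530 and 446 CPM in TBK1-DKO 1, 2 and 3, against 575, 679 and 668 CPM in WT 1, 2 and 3. All TBK1-DKO libraries were below all WT libraries, again with TBK1-DKO 2 and WT 1 nearest to each other. Ifi30 fell by 25.7% (log2 fold change -0.43, SE 0.09; adjusted p = 0.0060, edgeR, Benjamini-Hochberg), and the call stood when each library was left out.

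**Figure D2:**
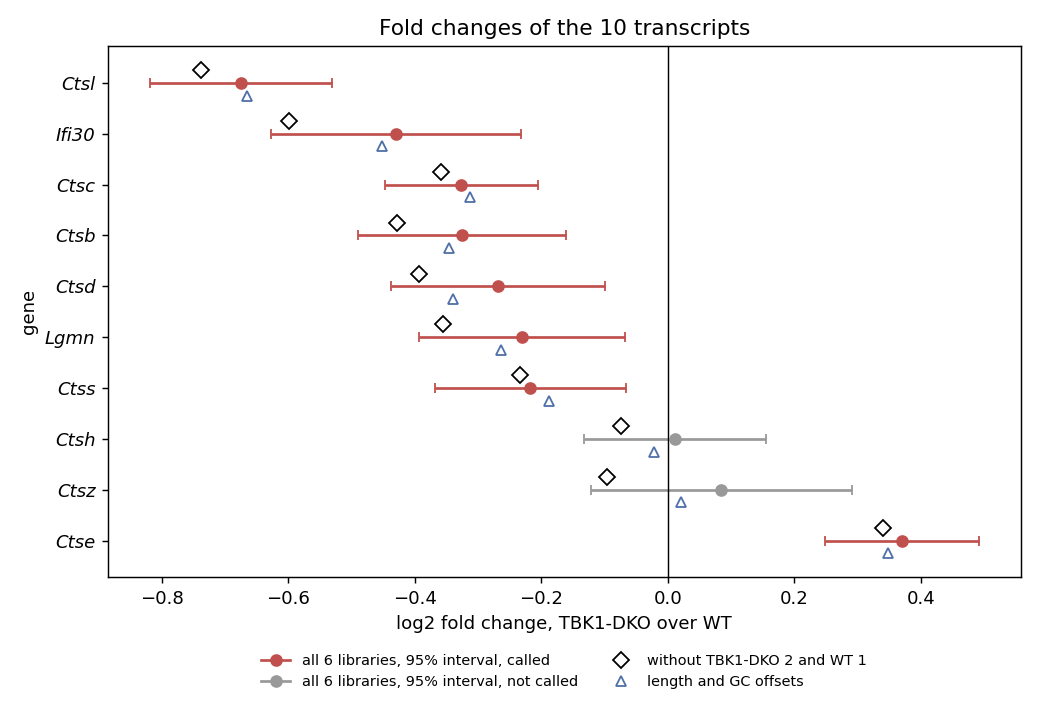
Log2 fold change of each transcript, TBK1-DKO over WT (horizontal axis), with its 95% interval over all 6 libraries (circles; red where called, grey where not), without TBK1-DKO 2 and WT 1 (diamonds), and with length and GC offsets (triangles). The 7 falls range from -0.68 (Ctsl) to -0.22 (Ctss), Ctse is at 0.37, and for Ctsz and Ctsh the diamonds lie on the other side of 0.

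Within the groups the members varied by library in a way that the labels do not give. TBK1-DKO 2 was the highest TBK1-DKO library for all 10 members, and TBK1-DKO 3 the lowest for 8. The share of all tested genes with this order was not counted, so it is not shown to be particular to the members. Outside the members, TBK1-DKO 2 was the highest of its group for Cst3 (848 CPM, against 719 and 729). It was the lowest for Wdfy4 (936 CPM, against 1196 and 1203). WT 1 was the lowest WT library for 7 members, while it was the highest for Ctsl and Ctss. The range within a group was narrow for Ctsc (0.06 on the log2 scale in TBK1-DKO and 0.05 in WT) and Ctse, and wide for Ifi30 (0.25 in TBK1-DKO and 0.24 in WT) and Ctsz (0.23 in TBK1-DKO and 0.29 in WT).

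**Figure D3:**
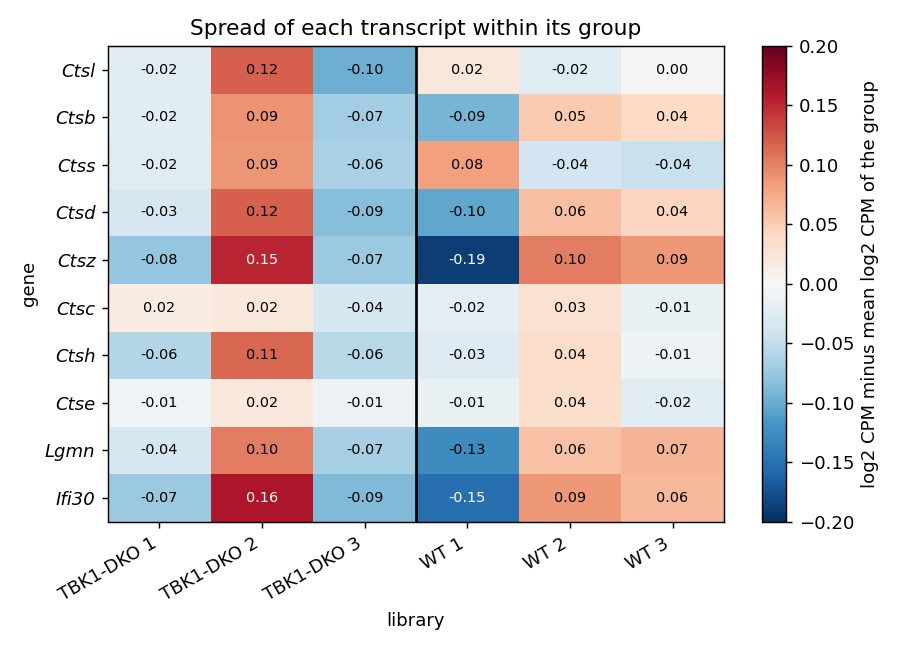
Log2 CPM of each transcript (rows) in each library (columns) minus the mean log2 CPM of its group; the black line separates TBK1-DKO from WT. The column of TBK1-DKO 2 is above its group's mean for all 10 transcripts, by 0.02 (Ctsc and Ctse) to 0.16 (Ifi30).

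Levels of different genes were compared per kilobase of exon (CPM per kb, over all exons annotated in GENCODE M21). Ifi30 had the highest level per kb, 485 ± 48.3 in TBK1-DKO and 653 ± 57.9 in WT (SD, n = 3 each). Ctss followed with 468 ± 26.1 CPM per kb in TBK1-DKO and 544 ± 27.1 in WT. Next came Ctsb (337 ± 19.2 in TBK1-DKO and 422 ± 23.2 in WT) and Ctsd (321 ± 24.2 in TBK1-DKO and 387 ± 23.8 in WT), whose ranges overlapped in both groups although Ctsb was above Ctsd in each of the 6 libraries. In TBK1-DKO the ranges of Ifi30 and Ctss and of Ctsd and Ctsz overlapped as well. Ctsz, Lgmn, Ctse, Ctsh and Ctsc lay lower, between 54.1 and 274 CPM per kb in TBK1-DKO and between 67.8 and 259 in WT. Ctsl was the lowest at 10.3 ± 0.79 CPM per kb in TBK1-DKO and 16.4 ± 0.27 in WT. The order was the same in both groups except that Ctse was above Lgmn in TBK1-DKO (153 ± 1.92 against 141 ± 8.86 CPM per kb) and below it in WT (118 ± 2.54 against 165 ± 12.2). The length used matters, as shown with the length of 1 transcript per gene, chosen after the values were seen. Ctsl then stood at 33.8 CPM per kb in TBK1-DKO and 54.0 in WT and was still the lowest. Ctsh moved above Lgmn in both groups and above Ctse in WT. The WT ranges of Ctss (545 ± 27.2 CPM per kb) and Ctsb (538 ± 29.6) then overlapped. Ctsb was above Ctss in WT 2 and WT 3.

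As shares of the summed CPM per kb of the 10 members, Ifi30 took 20.9 ± 0.63% in TBK1-DKO and 24.1 ± 1.09% in WT. Ctse took 6.61 ± 0.36% in TBK1-DKO and 4.38 ± 0.17% in WT, and Ctsz took 11.8 ± 0.31% in TBK1-DKO and 9.53 ± 0.63% in WT. Ctss had a share of 20.2 ± 0.29% in TBK1-DKO and 20.1 ± 1.95% in WT. These shares rest on the length of all annotated exons. They were not computed with the length of 1 transcript, with which several levels per kb moved.

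Promoter windows of RefSeq (build GRCm38.p6, 250 bases before to 50 after a gene's start) were at hand for 7 of the 10 members, Ctsl, Ctss, Ctsd, Ctsz, Ctsc, Lgmn and Ifi30, with 8 windows in all. They were searched on both strands for CACGTG, the core of the sites that the transcription factor TFEB and its relatives are known to bind at lysosomal genes, for its longer form TCACGTGA, and for TTCNNNGAA, a site of STAT factors. Each of the 3 motifs is its own reverse complement, and every TCACGTGA holds the shorter motif. A match to CACGTG was found for 4 members, Ctsl, Ctsd, Lgmn and Ifi30, and in 7.15% of all 32851 windows. Members are counted by gene and the share by window. Lgmn has 2 windows, and its match lies in chr12:102439043-102439342 and not in chr12:102439679-102439978. TCACGTGA was found for 2, Ctsd and Ifi30, and in 0.974% of all windows. TTCNNNGAA was found for Ctsc alone, and in 8.30% of all windows. The windows of 3 members that fell are shown here, with CACGTG in capitals. In Ifi30 (chr8:70766614-70766913) it begins 196 bases before the start, in Ctsd (chr7:142387778-142388077) 245 and 98 bases before it, and in Ctsl (chr13:64370471-64370770) 236 bases before it, all read 5′ to 3′ on the minus strand. The Ctsl window belongs to a start upstream of that of Ctsl-201. A match describes the sequence only.
Ifi30: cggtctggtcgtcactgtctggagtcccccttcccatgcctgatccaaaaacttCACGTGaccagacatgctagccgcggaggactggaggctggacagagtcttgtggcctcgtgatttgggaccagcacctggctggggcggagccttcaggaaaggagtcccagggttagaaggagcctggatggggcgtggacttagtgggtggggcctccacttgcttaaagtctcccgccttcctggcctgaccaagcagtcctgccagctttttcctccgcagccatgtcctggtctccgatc
Ctsd: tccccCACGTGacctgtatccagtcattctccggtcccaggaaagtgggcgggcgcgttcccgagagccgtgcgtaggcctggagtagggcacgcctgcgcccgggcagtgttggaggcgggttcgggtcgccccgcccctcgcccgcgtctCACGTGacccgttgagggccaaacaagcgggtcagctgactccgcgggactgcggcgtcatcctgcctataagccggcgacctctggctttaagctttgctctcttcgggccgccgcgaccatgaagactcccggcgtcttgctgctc
Ctsl: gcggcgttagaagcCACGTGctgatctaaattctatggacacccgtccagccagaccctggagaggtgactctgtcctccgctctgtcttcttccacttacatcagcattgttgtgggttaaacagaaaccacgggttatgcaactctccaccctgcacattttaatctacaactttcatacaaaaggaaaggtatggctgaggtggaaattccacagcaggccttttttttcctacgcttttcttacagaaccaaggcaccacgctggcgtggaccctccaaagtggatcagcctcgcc

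Other genes of the pathway were read from 9 lists. Over their 111 tested genes, 18 were called lower and 11 higher (16.2% and 9.91%, where 9.90% and 13.7% of all tested genes were called lower and higher), and the median log2 fold change was -0.06. These counts moved with the libraries. Without TBK1-DKO 1, TBK1-DKO 3, WT 2 and WT 3 in turn there were 9, 8, 9 and 13 lower and 5, 4, 2 and 4 higher, where 6.83%, 7.11%, 6.62% and 7.11% of all genes were lower and 10.5%, 10.6%, 9.10% and 9.76% higher. Without TBK1-DKO 2 there were 37 lower and 11 higher, where 14.4% of all genes were lower and 15.7% higher. Without both TBK1-DKO 2 and WT 1 there were 58 lower and 17 higher, where 23.5% of all genes were lower and 24.2% higher.

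In the list of other cathepsins and napsin 2 of 7 fell, 1 rose and 4 were not called, with a median of -0.06. Ctsg, a serine protease of neutrophil granules, rose to 18.7 ± 1.59 CPM in TBK1-DKO, against 4.95 ± 0.40 CPM in WT (log2 fold change 1.91, SE 0.10). All 13 neutrophil markers rose in the same libraries, with a summed level of 6290 to 7236 CPM in TBK1-DKO and 2632 to 2903 CPM in WT, and their part in the Ctsg result was not tested. Ctsw, known from NK and cytotoxic T cells, fell to 25.9 ± 2.75 CPM in TBK1-DKO, against 35.0 ± 2.42 CPM in WT. NK markers fell in 6 of 7 cases, with a summed level of 187 to 203 CPM in TBK1-DKO and 260 to 285 CPM in WT (Klra8 was at 0), and their part in the Ctsw result was not tested. Among these markers the Nkg7 call was lost without TBK1-DKO 3, WT 2 or WT 3 (adjusted p up to 0.064, edgeR, Benjamini-Hochberg). Ctsk, the collagen-degrading cathepsin of osteoclasts, fell to 0.68 ± 0.13 CPM in TBK1-DKO, against 1.42 ± 0.28 CPM in WT. Napsa, an aspartic protease (log2 fold change 0.09), Ctsa (-0.08), Ctsf (-0.06) and Ctso (0.02) were not called. The other 9 rows of the count files named as cathepsins, mostly the placental family beside Ctsl, had at most 13 reads in any library.

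The list of cathepsin inhibitors holds cystatins and serpins and changed in both directions. Of 7 tested genes 4 were called higher and 2 lower (median 0.21), where 13.7% and 9.90% of all tested genes were. Of its tested cystatins Cst7 rose, Cst3 fell and Cstb (-0.13) was not called. The other rises were of serpins, Serpinb1a, Serpinb9 and Serpinb6b, so the median does not describe inhibitors of cysteine cathepsins alone. Serpinb6a, a serpin gene, fell to 104 ± 9.13 CPM in TBK1-DKO, against 160 ± 3.29 CPM in WT (log2 fold change -0.62, SE 0.07), and that call stood with each library left out. Cst3, the secreted cystatin C, fell to 765 ± 71.9 CPM in TBK1-DKO, against 955 ± 75.0 CPM in WT (log2 fold change -0.32, SE 0.09). Cst7, an intracellular cystatin that inhibits several cysteine cathepsins, rose by 0.30 and Serpinb1a, an inhibitor of granule serine proteases, by 0.23 on the log2 scale. The calls of Cst3, Cst7 and Serpinb1a were each lost without WT 2 or WT 3 (adjusted p up to 0.094, 0.12 and 0.11, edgeR, Benjamini-Hochberg). Cst3 also lost its call without TBK1-DKO 1, Cst7 without TBK1-DKO 2, and both of these without TBK1-DKO 3. Serpinb6b (0.22) and Serpinb9 (0.21) lost theirs without TBK1-DKO 1, TBK1-DKO 3, WT 2 or WT 3, and Serpinb6b also without TBK1-DKO 2. Their adjusted p reached 0.21 and 0.17 (edgeR, Benjamini-Hochberg). Each of the 4 rises was thus lost without WT 2 or WT 3.

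Of 30 other lysosomal hydrolases and activators, 9 fell, 2 rose and 19 were not called, with a median of -0.05. Pla2g15, a lysosomal phospholipase, fell by 0.39 on the log2 scale, Ppt1, which removes palmitate from proteins, by 0.32, and Acp2, an acid phosphatase, by 0.30. Arsb, arylsulfatase B, rose to 108 ± 5.86 CPM in TBK1-DKO, against 81.3 ± 1.55 CPM in WT (log2 fold change 0.41, SE 0.06). These 4 calls and that of Gla (-0.42) stood with each library left out. The remaining calls of the list, of Tpp1, Gm2a, Asah1, Lipa, Dpp7 and Psap, were each lost with at least 1 library left out (adjusted p up to 0.18, edgeR, Benjamini-Hochberg). In the lysosomal membrane 3 of 14 genes fell, 1 rose and 10 were not called, with a median of -0.08. Slc11a1, the metal transporter NRAMP of phagosomes, fell by 0.40 (SE 0.06), a call that stood with each library left out. Cd68, a membrane protein abundant in macrophages, fell by 0.27, and Laptm5 fell by 0.20. Both calls were lost without TBK1-DKO 1, TBK1-DKO 3, WT 2 or WT 3 (adjusted p up to 0.087 and 0.16, edgeR, Benjamini-Hochberg). Cd63 rose by 0.32, a call lost without WT 2 (adjusted p = 0.086, edgeR, Benjamini-Hochberg). Lamp1 (-0.10) and Lamp2 (-0.10), the main glycoproteins of the membrane, were not called.

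The proton pump that acidifies lysosomes and the sorting machinery gave few calls. Of 17 tested subunits of the vacuolar ATPase, 1 rose, Atp6v0a1 by 0.25, and 16 were not called, with a median of -0.09. Atp6v0c was listed at 0 in all 6 libraries and was not tested. Among 11 genes for sorting of lysosomal enzymes 1 fell, Gga2 by 0.22 (median -0.02). Gnptg, a subunit of the enzyme that makes the mannose 6-phosphate tag, was not called at -0.24, and M6pr and Igf2r, the mannose 6-phosphate receptors, had log2 fold changes of 0.04 and -0.02. The calls of Atp6v0a1 and Gga2 were each lost without TBK1-DKO 1, TBK1-DKO 3 or WT 2 (adjusted p up to 0.066 and 0.079, edgeR, Benjamini-Hochberg). Of the 5 regulators of lysosomal gene transcription 0 were called by edgeR, DESeq2 or limma-voom, and 2, Mitf and Tfec, had an unadjusted p under 0.05 in edgeR, with log2 fold changes of 0.11 for Tfeb, 0.04 for Tfe3, -0.24 for Mitf, -0.20 for Tfec and -0.11 for Zkscan3.

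The substrate and partners of these enzymes on the MHC class II route were mostly not called. Of 11 genes 1 fell, H2-Ob, a chain of the editor that restrains peptide loading, by 0.21, and 10 were not called (median -0.08). Next by p were H2-DMb1, a chain of the peptide editor, with a log2 fold change of -0.22 (adjusted p = 0.059, edgeR, Benjamini-Hochberg), and Ciita, the transactivator of MHC class II genes, with 0.24 and no overlap of the groups (adjusted p = 0.060). Cd74 had a log2 fold change of -0.05 (SE 0.09), H2-Aa -0.09, H2-DMa -0.08 and Sppl2a, the protease that removes the last stub of the invariant chain from the membrane, -0.11. In endosomal processing for cross-presentation 2 of 9 rose, Tap1 by 0.24 and Cybb, a subunit of the phagosomal NADPH oxidase that slows acidification, by 0.23, with a median of 0.04. The calls of H2-Ob, Tap1 and Cybb were each lost without TBK1-DKO 1, TBK1-DKO 3 or WT 2, those of Tap1 and Cybb also without WT 3 and that of Tap1 also without WT 1 (adjusted p up to 0.087, 0.071 and 0.16, edgeR, Benjamini-Hochberg).

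**Figure D4:**
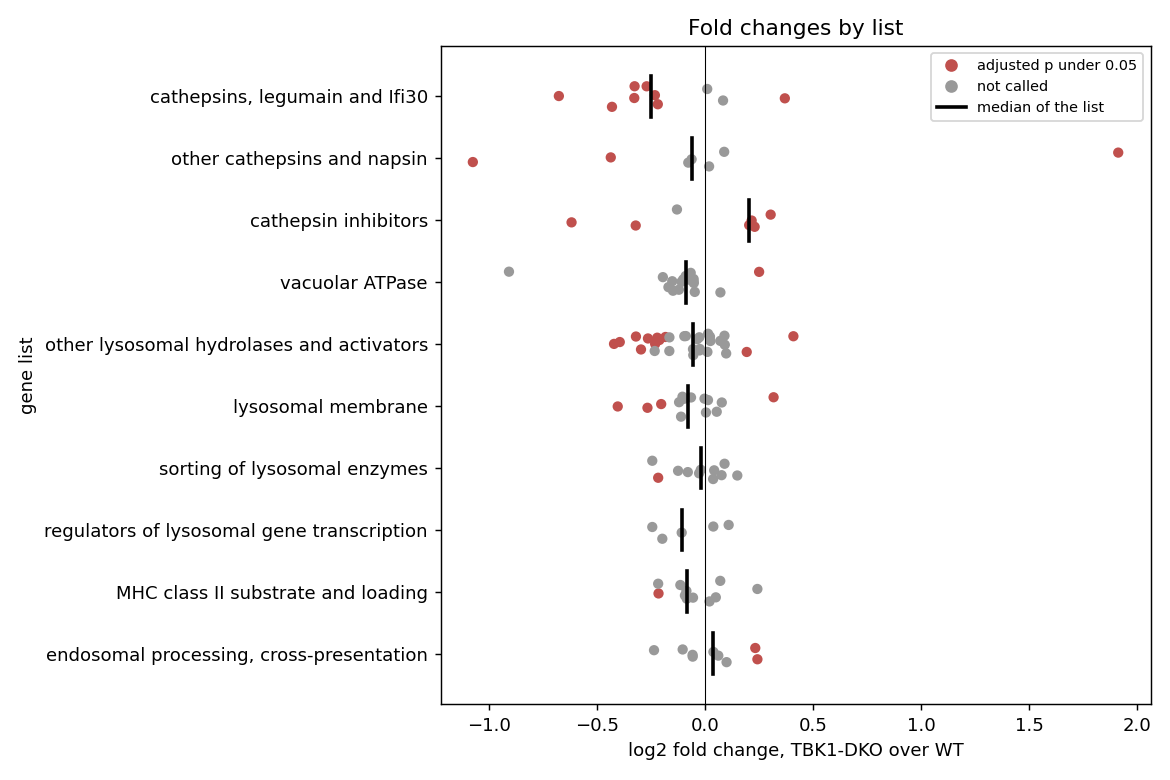
Log2 fold change, TBK1-DKO over WT (horizontal axis), of every tested gene of the 10 enzymes and of the 9 pathway lists (rows), red where the adjusted p is under 0.05 and grey where it is not; black bars are list medians. The median of the 10 enzymes lies at -0.25, and the medians of the other lists lie between -0.11 (regulators) and 0.21 (inhibitors).

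Markers of several cell types moved with the groups, where 9.90% of all tested genes were called lower and 13.7% higher. Macrophage markers fell in 12 of 15 cases, and in 9 to 13 with a library left out. C1qa, C1qb and C1qc were among the calls lost. The summed macrophage level was 5809 to 6186 CPM in TBK1-DKO and 8303 to 9027 CPM in WT, and none of the 15 was at 0 (Adgre1 was not analysed here). Cd163, a scavenger receptor of macrophages, fell by 1.08, Vcam1 by 0.62 and Mrc1, the mannose receptor, by 0.66 on the log2 scale. Plasmacytoid dendritic cell markers fell in 8 of 9 cases (1209 to 1245 CPM summed in TBK1-DKO, 1546 to 1558 CPM in WT), and type 1 conventional dendritic cell markers in 7 of 9 (1868 to 2113 CPM in TBK1-DKO, 2267 to 2426 CPM in WT). Most of the type 1 sums came from Wdfy4 (mean 1112 CPM in TBK1-DKO and 1137 in WT), which was not called, and Irf8 (591 and 738). The type 1 sums thus say little about the other markers of that list. Monocyte markers fell in 5 and rose in 2 of 10 cases (2235 to 2269 CPM in TBK1-DKO, 2886 to 2946 CPM in WT). The largest part of the monocyte sums was Csf1r (mean 1122 CPM in TBK1-DKO and 1623 in WT). The 2 rises were of F13a1 (0.67) and Ly6c2 (0.22). For type 2 conventional dendritic cells 3 of 9 rose and 2 fell, and the summed levels overlapped. In the list of dendritic cells as a whole 2 of 9 rose and 1 fell, with 9181 to 10609 CPM summed in TBK1-DKO and 9393 to 10665 CPM in WT. Most of these sums came from Cd74 (mean 6374 CPM in TBK1-DKO and 6618 in WT) and H2-Ab1 (2222 and 2357). Both genes are also in the MHC class II list, so the sums say little about the other dendritic cell markers. B cell markers fell in 2 of 8 cases (3080 to 3233 CPM in TBK1-DKO, 3479 to 3633 CPM in WT) and T cell markers in 5 of 8 (314 to 334 CPM in TBK1-DKO, 368 to 394 CPM in WT). Stromal and endothelial markers fell in 3 of 8 with 1 higher (180 to 187 CPM in TBK1-DKO, 215 to 228 CPM in WT). Among these falls Col1a1 (mean 1.21 CPM in TBK1-DKO and 2.24 in WT) and Col3a1 (1.40 and 2.47) had low levels. Their calls and the rise of Kdr were lost with single libraries left out. So were the calls of Tcf4, Ly6d, Spib, Tlr3, Clec4a4 and Ly6c2 in the lists above, and that of Nkg7 among the NK markers. All 8 plasma cell markers rose (1980 to 2176 CPM in TBK1-DKO, 1235 to 1387 CPM in WT), as did all 5 tested erythroid markers (2447 to 2529 CPM in TBK1-DKO, 1337 to 1473 CPM in WT). The part of these cell types in the falls of Ctsl, Ifi30, Ctsc, Ctsb, Ctsd, Lgmn and Ctss and in the rise of Ctse was not tested.

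**Figure D5:**
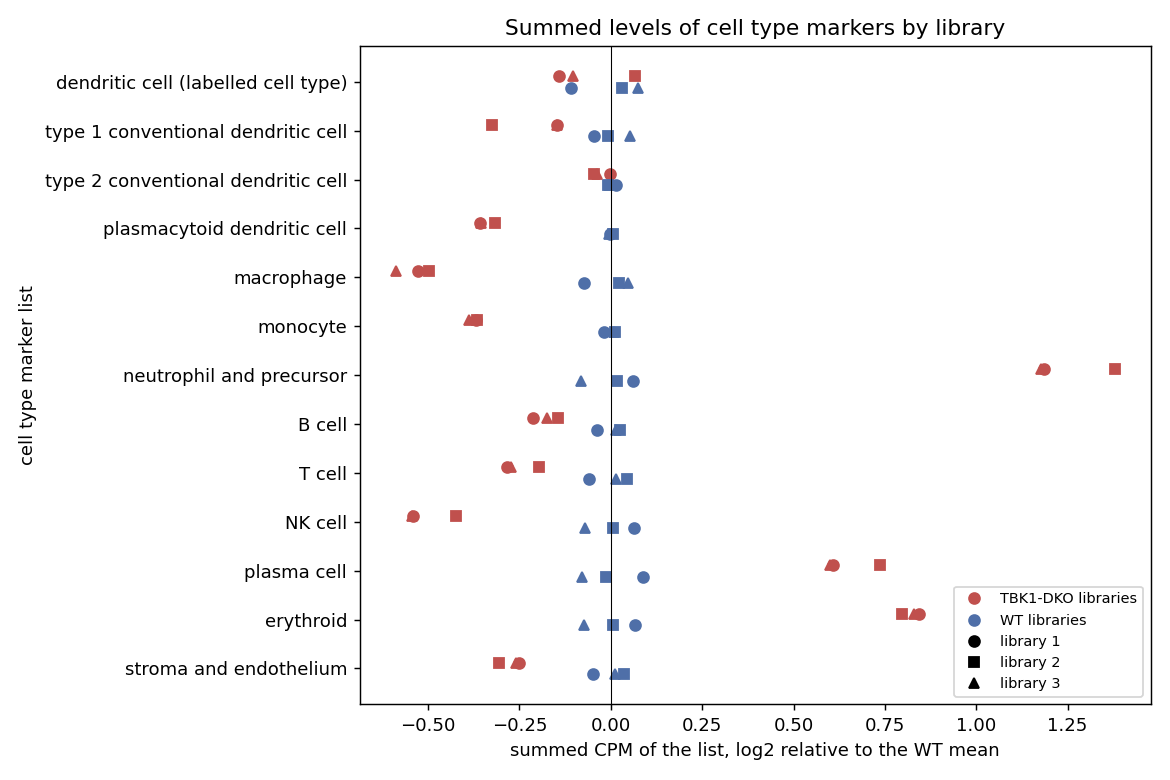
Summed CPM of each cell type marker list (rows) in each library, as log2 relative to the mean of the WT libraries (horizontal axis); red symbols are TBK1-DKO libraries, blue symbols WT libraries. The macrophage sum is lower by 0.50 to 0.59 in the TBK1-DKO libraries, and the neutrophil sum is higher in all 3. The sums of the dendritic cell list, which come mostly from Cd74 and H2-Ab1, overlap.

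For the 3 members with the smallest p, the genes with the most similar profile over the 6 libraries were sought among 9584 genes with a mean of at least 10 CPM. Likeness was the root mean square distance between log2 profiles, each centred on its own mean. Nearest to Ctsl were Esd, Serpinb6a and Tsc22d3, a glucocorticoid-induced gene, at distances of 0.03, where the median gene lay at 0.36. Esd had 53.4, 61.1 and 51.4 CPM in TBK1-DKO 1, 2 and 3, against 89.5, 87.9 and 85.4 CPM in WT 1, 2 and 3. Nearest to Ctse were Fbxo9, Arfgap3 and Rangap1, at 0.02 with a median gene at 0.21, and nearest to Ctsc were Inpp5k, Siglece and Gpr65, at 0.02 to 0.03 with a median gene at 0.19. Each of these 9 genes was called in the direction of its member, a direction that the measure of likeness favours.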

How the data were processed

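RNA sequencing libraries of splenic dendritic cells were compared between 3 TBK1-DKO and 3 WT samples, grouped by title and genotype label. The deposited values are raw read counts per gene symbol, 1 file per sample. The build mm10 and the tools TopHat, TopHat2, HTSeq and DESeq2 are named per the submitters' processing notes; their versions, the annotation and the strand setting were not given in the sources used here, so reads of overlapping genes on opposite strands could not be told apart. Summary rows that name no gene (9.96% to 10.7% of records in TBK1-DKO and 8.20% to 8.67% in WT) were left out of library sizes and tests.

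Genes were filtered with filterByExpr (minimum count 10), scaled by TMM factors (0.996 to 1.012) and tested with the edgeR 4.0.16 quasi-likelihood test (robust dispersion, no covariates) in R 4.3.3, with Benjamini-Hochberg adjustment over all 14388 genes tested. CPM are mean ± SD (n = 3), standard errors were derived from the F statistic, and intervals are 95%. Positions, exons and lengths are from GENCODE M21 (GRCm38, the assembly of mm10). With simulated counts (14286 genes tested) 26.0% of genes given a log2 change of 0.3 were called, and 78.0% of those given 0.585. Members and lists were chosen with earlier results of these data known. Named genes were the members, all other cathepsins, and up to 4 genes of smallest p per pathway list and 3 per marker list. The 3 nearest profiles of each of 3 members and Tbk1 were named too. Others were named for their role or to complete a list, after their values were seen. Examples are Lamp1, Lamp2, M6pr, Igf2r, Tfe3, H2-Aa, H2-DMa, Cd74 and Flt3. Alternatives were DESeq2 1.42.0, limma-voom (limma 3.58.1), other scalings and filters, a replicate block, length and GC offsets, stricter thresholds and libraries left out. Figures were drawn with matplotlib 3.10.9.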

Additional observations from a re-analysis of the deposited data

How the results depend on the processing

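The 10 fold changes were recomputed under 19 alternatives. Of the 190 values, 164 kept their direction and their side of the threshold, 15 kept the direction and lost the call, and 11 changed sign. Ctsl, Ctsc, Ctse and Ifi30 kept their calls under all 19. The lost calls all came with a library left out, where log2 fold changes ranged from -0.39 to -0.29 for Ctsb, -0.28 to -0.18 for Ctss, -0.35 to -0.23 for Ctsd and -0.31 to -0.20 for Lgmn. Sign changes were limited to Ctsz and Ctsh. With a library left out Ctsz ranged from -0.02 to 0.12 and Ctsh from -0.07 to 0.042. Without TBK1-DKO 2 and WT 1 they were -0.10 and -0.073, Ctsb was -0.43 and Lgmn -0.36. That setting removes the libraries that stood apart and so narrows the spread by construction. Ctsh was -0.0099 with upper-quartile factors, -0.0014 with no filter, -0.021 with length and GC offsets and -0.024 with these offsets and the replicate block; the cause was not tested.

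The count of members that fell was 3 to 7 with a library left out, 9 without TBK1-DKO 2 and WT 1, 4 at an adjusted p under 0.01 and 1 at a change of at least 1.5-fold, where 0 rose. Pathway genes numbered 8 to 37 lower and 2 to 11 higher with a library left out, 58 and 17 without TBK1-DKO 2 and WT 1, 35 lower with the offsets and 40 with offsets and block. Over all genes 972 to 2082 fell and 1336 to 2270 rose with a library left out. The 1424 falls became 2348 with the offsets, 2562 with offsets and block, and 3397 (3500 higher) without TBK1-DKO 2 and WT 1; thresholds of 0.01 and 1.5-fold left 726 and 464 lower and 1270 and 808 higher. The difference in the log2 ratio of Ctsl to Ctss was -0.49 to -0.44 with a library left out and -0.50 without TBK1-DKO 2 and WT 1.

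Replicate numbers are shared by the groups, but same-numbered libraries deviated together with correlations of 0.27, 0.22 and -0.11, so the numbers were not taken as pairs. The replicate block moved no member across the threshold (Ctsl -0.68, Ctse 0.37) and gave 1773 falls and 2313 rises. With the length of 1 transcript, added after the data were seen, WT levels per kb were 54.0 for Ctsl, 538 for Ctsb, 474 for Ctsd, 158 for Ctsc, 211 for Ctsh, 177 for Ctse and 193 for Lgmn. Each member had at least 2795 reads in every library; no fit at reduced depth was run.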
